A study of Mus musculus with 6 samples.

Results

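The transcripts described here encode the subunits of the proteasome: 41 protein-coding genes, of 54532 genes in the files, whose mouse symbols follow the nomenclature of the alpha ring (Psma1 to Psma7), the beta ring (Psmb1 to Psmb10), the ATPases (Psmc1 to Psmc6), the other regulatory subunits (the Psmd genes) and the activators (Psme1 to Psme4). Membership was set by symbol, and the family was chosen with earlier results of these data known. The 5 subunits known to be induced by interferon (Psmb8, Psmb9, Psmb10, Psme1 and Psme2) were set against the other 36. The tissue was cervical spinal cord of C57BL/6 mice, and 6 mice gave 1 RNA library each. In 3 of them 50 mg of a cream with 5% imiquimod, an agonist of Toll-like receptor 7 that causes a psoriasis-like dermatitis, was put on the shaved neck daily for 2 days, and the other 3 received as much vehicle cream. No age or sex is given in the sources used here. Strain, shaving and tissue were the same in both groups. The comparison asks how far proteasome subunit transcripts in the cord differ between mice given imiquimod cream and mice given vehicle cream.

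The proteasome degrades ubiquitin-tagged proteins inside a barrel of stacked alpha and beta rings. Of the constitutive beta subunits only Psmb5, Psmb6 and Psmb7 cut peptide bonds. In cells exposed to interferon, and in many immune cells without it, newly made barrels take up Psmb8 (LMP7) in place of Psmb5, Psmb9 (LMP2) in place of Psmb6 and Psmb10 (MECL-1) in place of Psmb7. This form, the immunoproteasome, favours peptides that bind MHC class I. Psme1 and Psme2 form a heteromeric cap that opens the barrel. In the healthy central nervous system the constitutive form is known to predominate.

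The genes of the inducible subunits lie in pairs or alone. Psmb9 (17:34181987-34187764, minus strand) and Psmb8 (17:34197721-34201454, plus strand; mm10 coordinates of GENCODE release M21) flank Tap1, a chain of the peptide transporter that feeds class I molecules, in the MHC region. The RefSeq starts of Psmb9 and Tap1 point away from each other and are 226 bases apart, so that 1 stretch of DNA precedes both. Psme1 (14:55578123-55581529, plus strand) and Psme2 (14:55587441-55591113, minus strand) are separated by 5911 bases, whereas Psmb10 (8:105935735-105938444, minus strand) stands on a chromosome with no other inducible member. The windows shown are those from 250 bases before to 50 bases after the RefSeq start (GRCm38.p6) of Psmb8 and Psme1, which held a searched motif, of Psmb9, which reaches toward Tap1 and held none, and of Psmb5, the constitutive counterpart of Psmb8. Capitals mark a motif.
Psmb8, chr17:34197945-34198244, plus strand: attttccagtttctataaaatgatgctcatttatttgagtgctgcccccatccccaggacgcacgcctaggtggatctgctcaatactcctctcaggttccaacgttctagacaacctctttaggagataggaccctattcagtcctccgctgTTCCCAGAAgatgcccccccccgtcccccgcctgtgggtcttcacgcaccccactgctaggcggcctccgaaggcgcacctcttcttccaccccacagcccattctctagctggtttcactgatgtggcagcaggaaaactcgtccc
Psmb9, chr17:34187281-34187580, minus strand: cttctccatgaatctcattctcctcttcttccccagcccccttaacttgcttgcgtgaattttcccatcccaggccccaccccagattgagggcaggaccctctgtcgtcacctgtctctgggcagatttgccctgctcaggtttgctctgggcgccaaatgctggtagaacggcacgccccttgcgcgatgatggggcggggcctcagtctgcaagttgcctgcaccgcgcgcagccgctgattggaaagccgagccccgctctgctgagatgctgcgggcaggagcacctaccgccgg
Psme1, chr14:55578244-55578543, plus strand: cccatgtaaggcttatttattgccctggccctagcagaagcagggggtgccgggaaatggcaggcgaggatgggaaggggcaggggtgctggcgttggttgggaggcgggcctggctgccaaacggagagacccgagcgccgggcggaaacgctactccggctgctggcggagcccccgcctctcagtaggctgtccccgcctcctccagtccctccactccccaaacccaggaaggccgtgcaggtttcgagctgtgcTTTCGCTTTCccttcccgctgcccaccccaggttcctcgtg
Psmb5, chr14:54617946-54618245, minus strand: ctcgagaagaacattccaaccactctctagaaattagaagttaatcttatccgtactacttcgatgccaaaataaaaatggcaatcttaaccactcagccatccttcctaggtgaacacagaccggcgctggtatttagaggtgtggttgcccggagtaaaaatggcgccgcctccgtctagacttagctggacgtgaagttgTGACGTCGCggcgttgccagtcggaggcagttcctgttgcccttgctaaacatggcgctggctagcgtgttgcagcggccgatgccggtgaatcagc
The motifs searched on both strands were the interferon-stimulated response element (GAAA, any 2 bases, GAAA), the gamma-activated site (TTCNNNGAA), to which STAT proteins are known to bind, and the core of the antioxidant response element (TGACNNNGC). The match in the Psmb8 window was a gamma-activated site starting 97 bases before the RefSeq start, a motif held by 8.30% of all 32851 windows. That in the Psme1 window was a response element on the minus strand from base 10 of the transcript, a motif held by 3.44% of all windows. The Psmb5 window held the antioxidant core 47 bases before its start, as did 12.4% of all windows at any place. The windows of Psmb9 and Psmb10 and both windows of Psme2 held none of the 3 motifs. Of the 35 members with a window, 4 held the response element (Psme1, Psmb3, Psmd4 and Psmd9), 2 the gamma-activated site (Psmb8 and Psmd2) and 6 the antioxidant core, among them Psmb5 and Psmb6. Of all 27025 genes with a window, 3.99%, 9.55% and 14% held these motifs. A match says only that these letters are present, and the lack of one says nothing of a factor's binding. The RefSeq starts of all 5 inducible genes and of Psmb5 lie inside longer GENCODE gene models, so that sequence before the GENCODE starts was searched only in part or, for Psmb8, Psmb9 and Psme1, not at all.

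All 5 inducible subunits were higher in the imiquimod cords, by 2.99-fold to 11.9-fold in mean FPKM (sequenced fragments per kilobase of exon, scaled by 1 factor per library). Every imiquimod library lay above every vehicle library for each of them. The other 36 subunits moved little: the ratio of mean FPKM ran from 1.01 to 1.37, and 11 of the 36 passed the test as higher and none as lower. Each gene was tested with limma on log2(FPKM + 0.1) over all 16513 genes with a mean of at least 0.5 FPKM in either group, with Benjamini-Hochberg adjustment and a threshold of 0.05. All 41 members entered in both groups by their levels, the lowest vehicle mean being 1.49 FPKM. Of all genes tested 14.1% passed, 8.74% as higher and 5.34% as lower. In bulk tissue, a change in the number of cells of a type and a change in RNA per cell cannot be told apart. The libraries held 18174421 to 23200994 fragments, recovered from FPKM times exon length.

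Psmb8 had the largest change of the 41. Its values were 3.86, 5.05 and 3.92 FPKM under vehicle and 63.2, 40.2 and 49.4 FPKM under imiquimod. The lowest imiquimod mouse was thus well above the highest vehicle mouse. The log2 change was 3.53 ± 0.18 (SE, limma adjusted p = 2.98e-04). Psmb8 rested on 787 recovered fragments in all vehicle libraries together and on 11369 in all imiquimod libraries.

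Psmb9 was the lowest of all members in vehicle cords, at 1.17, 1.93 and 1.37 FPKM, and stood at 11.5, 7.81 and 9.20 FPKM in imiquimod cords. The groups did not overlap, and the log2 change was 2.60 ± 0.21 (limma adjusted p = 0.00106). Its exons share 212 bases with Tap1 on the opposite strand, 5.79% of its exon length, and whether reads were counted by strand is not stated. Tap1 itself was 2.17 ± 0.695 against 14.9 ± 3.16 FPKM (SD, n = 3 each), a log2 change of 2.74 ± 0.24 (limma adjusted p = 0.00146). Tap2, on the far side of Psmb8, changed by 1.96 ± 0.22 (limma adjusted p = 0.0032).

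Psmb10 differed from the other inducible catalytic subunits in that it was well expressed without treatment. Its vehicle values were 20.4, 23.4 and 22.8 FPKM, close in FPKM to those of Psmb7 (28.5, 26.8 and 29.1 FPKM). The closeness depends on the annotated exon bases, 1705 for Psmb10 and 3421 for Psmb7. In recovered fragments the vehicle libraries together held 2073 for Psmb10 and 5265 for Psmb7. The imiquimod values were 137.7, 95.0 and 96.3 FPKM, with a log2 change of 2.28 ± 0.15 (limma adjusted p = 6.76e-04). Psmb10 passed from below Psmb7 in each vehicle library to above it in each imiquimod library.

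The cap subunits rose as well. Psme1 was 9.13, 13.5 and 13.1 FPKM in vehicle mice and 70.6, 44.7 and 57.6 FPKM in imiquimod mice (log2 change 2.26 ± 0.20, limma adjusted p = 0.00158). Psme2, its partner in the cap, was 10.7, 8.67 and 12.6 FPKM against 38.7, 25.2 and 31.9 FPKM (1.57 ± 0.19, limma adjusted p = 0.00381), the smallest change of the 5. Neither pair of groups overlapped. Psme2 shares 28.3% of its 50-base stretches with Psme2b, a copy of 1 exon elsewhere in the genome, so how reads with several matches were counted bears on its level. Psme2b was listed at 8.51, 18.4 and 10.8 FPKM against 42.9, 24.2 and 35.7 FPKM. Vehicle replicate 2 was the lowest vehicle library for Psme2 and the highest for Psme2b. With the FPKM of both summed, an alternative chosen after seeing the data, the log2 change was 1.49 ± 0.20 (limma adjusted p = 0.00559).

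**Figure D1:**
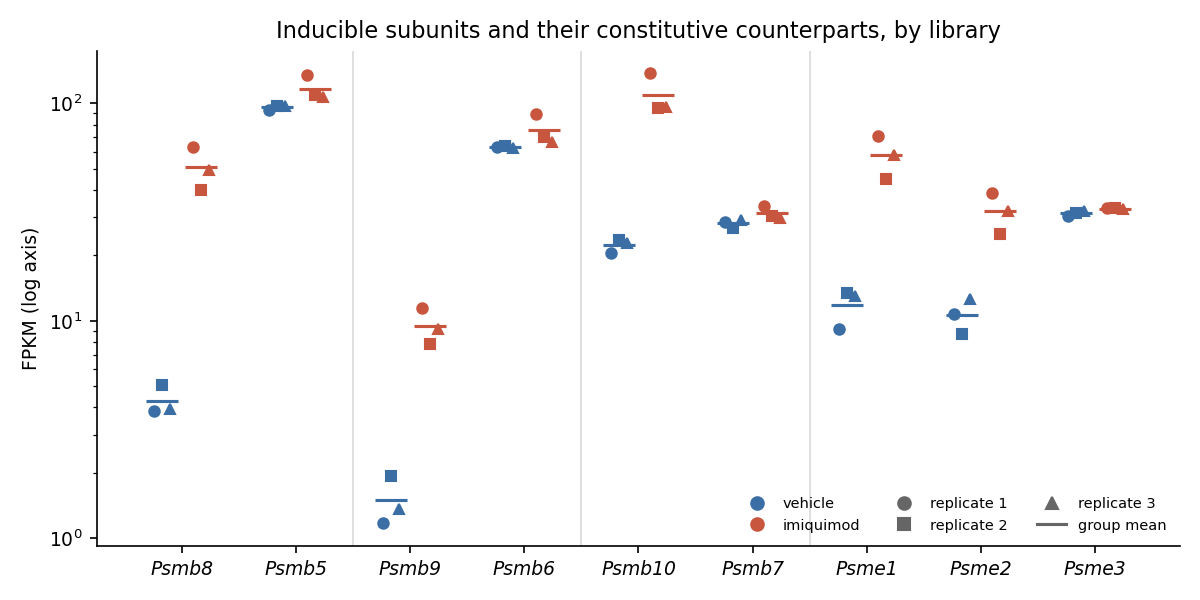
FPKM per library on a log axis for the inducible subunits beside the constitutive subunits they replace (Psmb8 and Psmb5, Psmb9 and Psmb6, Psmb10 and Psmb7) and for the activator subunits Psme1, Psme2 and Psme3. Points are single mice, shaped by replicate number, and bars are group means. Psmb8 goes from 3.86 to 5.05 FPKM in vehicle mice to 40.2 to 63.2 FPKM in imiquimod mice, while Psme3 stays between 30.3 and 33 FPKM in all 6.

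The inducible subunits kept a fixed order among the imiquimod libraries: replicate 1 was the highest and replicate 2 the lowest for all 5. In vehicle mice, replicate 2 was the highest for Psmb8, Psmb9, Psmb10 and Psme1. The coefficient of variation between vehicle mice ran from 7.11% (Psmb10) to 26.4% (Psmb9) for the inducible subunits and from 0.566% to 8.85% for the other 36. All 5 calls held in each of the 17 alternatives that were fitted across all genes, with limma adjusted p from 6.61e-05 to 0.0196. Among the 17, rescaling each library by its median ratio to the gene means could change little, as the FPKM already had that scale. Psmb8 was 3.5296 with it and 3.5298 without. After removal of the trends with exon length and GC content in each library, the changes ran from 1.41 for Psme2 to 3.34 for Psmb8.

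Markers of other cells moved in the same libraries, where 8.74% of all genes tested passed as higher and 5.34% as lower. Of 10 microglia markers 4 were higher and 0 lower, and their summed level was 163 to 196 FPKM in vehicle and 314 to 390.0 FPKM in imiquimod libraries. C1qa, a complement component, had the largest part in that sum (74.9 against 200.4 FPKM), whereas P2ry12 and Siglech stood at 0.60 and 0.46 times their vehicle means, below vehicle in every imiquimod library without passing, and Csf1r, Cx3cr1 and Sall1 at 0.90 to 1.14 times. From a list of 14 for T and NK cells, 8 reached the level tested and 6 were higher, with sums of 5.21 to 6.91 against 27.4 to 52.9 FPKM. Gzma and Gzmb, granule proteases of cytotoxic cells, made up most of the imiquimod sum. Of those called, Trbc1, Ncr1, Gzmb and Klrb1c had vehicle means under 0.5 FPKM and entered the test only by their imiquimod means. The filter thus tilts this count toward higher. Of the chains of the T cell receptor complex, Cd3e was 0.0588 against 0.0910 FPKM, Cd3d 0.121 against 0.348 FPKM and Cd3g 0.0348 against 0.155 FPKM. These were too low to be tested. Trbc1 was 0.0735 against 1.34 FPKM and passed. Trac was 2.00 against 3.95 FPKM and Trbc2 1.59 against 2.43 FPKM, and neither passed (limma adjusted p = 0.05005 and 0.187). Of 7 monocyte markers 4 were higher (5.23 to 13.2 against 24.8 to 82.4 FPKM summed). Among these, Ccr2 entered the test only by its imiquimod mean (0.132 against 2.00 FPKM). Chil3, F13a1 and Vcan stood at 5.52, 0.71 and 0.99 times their vehicle means and did not pass. Of 4 endothelial markers 3 were higher (93.3 to 110 against 195 to 225 FPKM summed), whereas Flt1 stood at 0.71 times its vehicle mean without passing. None of these markers was listed at 0 in all vehicle libraries. The part of these cells in the rise of the inducible subunits was not tested.

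In the other lists fewer markers passed. Of 6 neuron markers 1 was lower (848 to 872 against 672 to 771 FPKM summed), as was 1 of 3 measured motor neuron markers, and 1 of 5 astrocyte markers was higher and 1 lower. None of 5 oligodendrocyte markers passed, at sums of 7070 to 7533 against 4521 to 5915 FPKM. None of 5 measured neutrophil markers passed, at a median log2 change of -0.45. Camp and Ngp stood at 0.21 and 0.24 times their vehicle means, which rested largely on vehicle replicate 2. Vehicle replicates 1, 2 and 3 gave 1.34, 6.9 and 1.62 FPKM for Camp and 1.99, 13.1 and 3.43 FPKM for Ngp. Every imiquimod library lay below every vehicle library for Camp but not for Ngp. Vehicle replicate 2 was also the highest library for S100a8 and S100a9, but not for Retnlg. The 1 measured B cell marker did not pass either (log2 change 0.42), and 1 of 4 measured dendritic cell markers was higher. That marker, Itgax, entered the test only by its imiquimod mean (0.142 against 2.97 FPKM). Cervical Hox genes summed to 67.8 to 73.7 against 64.4 to 76.7 FPKM, and the lumbar genes Hoxc10 and Hoxd10 were listed at 0 in every library.

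Each constitutive catalytic subunit was higher in all 3 imiquimod libraries than in any vehicle library, but none of the 3 passed. Psmb5, the chymotrypsin-like subunit, stood at 93.7, 97.5 and 97.7 FPKM against 134.5, 109.6 and 106.7 FPKM (0.27 ± 0.10, limma adjusted p = 0.112). Psmb6, the caspase-like subunit, stood at 62.8, 64 and 62.5 FPKM against 89.6, 69.8 and 66.7 FPKM (0.24 ± 0.11, limma adjusted p = 0.201). Psmb7, the trypsin-like subunit, stood at 28.5, 26.8 and 29.1 FPKM against 33.8, 30.5 and 29.6 FPKM (0.15 ± 0.07, limma adjusted p = 0.207). In all 3 genes imiquimod replicate 1 was the highest library.

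The balance within each catalytic pair shifted toward the inducible subunit. Psmb8 made up 3.96%, 4.92% and 3.86% of the summed FPKM of Psmb8 and Psmb5 in vehicle mice and 32%, 26.8% and 31.7% in imiquimod mice. Psmb9 made up 1.84%, 2.93% and 2.14% of its pair with Psmb6 in vehicle mice and 11.3%, 10.1% and 12.1% in imiquimod mice. Psmb10 made up 41.8%, 46.7% and 43.9% of its pair with Psmb7 in vehicle mice and 80.3%, 75.7% and 76.5% in imiquimod mice. By FPKM, Psmb10 was thus the larger part of its pair in imiquimod cords, and Psmb8 and Psmb9 the smaller part of theirs. In recovered fragments, which are not divided by length, the order of Psmb8 and Psmb5 was the reverse (11369 against 6948 in the imiquimod libraries together). The order of Psmb9 and Psmb6 (2295 against 9310) and of Psmb10 and Psmb7 (12318 against 7094) was the same.

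On the log2 scale the ratio of Psmb8 to Psmb5 rose by 3.29, that of Psmb9 to Psmb6 by 2.44 and that of Psmb10 to Psmb7 by 2.13, or 9.77-fold, 5.43-fold and 4.38-fold. For each of the 3 pairs the groups did not overlap and the two-sided exact permutation p was 0.1, also after adjustment over the 3, which is the smallest that 3 against 3 mice allow. The threshold could therefore not be reached. Shares compare genes per length, and FPKM divides by all annotated exon bases (3381 for Psmb8 against 899 for Psmb5), so the level of a share depends on the gene models, whereas its change between groups in the log2 ratio does not.

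**Figure D2:**
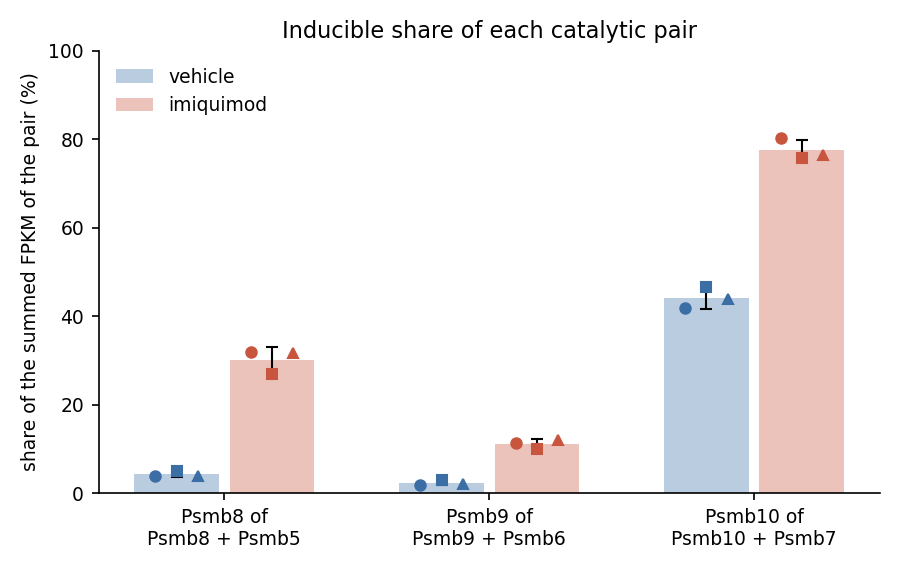
Share of the inducible subunit in the summed FPKM of each catalytic pair, in percent. Bars are group means, error bars the SD over 3 mice and points the single mice. The Psmb8 share goes from 4.25% to 30.2%, the Psmb9 share from 2.30% to 11.2% and the Psmb10 share from 44.1% to 77.5%.

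Ratios within the inducible set were not the same in both groups. There were 3.29, 2.61 and 2.87 FPKM of Psmb8 per FPKM of Psmb9 in vehicle mice and 5.52, 5.15 and 5.37 in imiquimod mice. The ratio of Psme1 to Psme2, which build 1 cap together, was 0.851, 1.56 and 1.03 in vehicle mice and 1.82, 1.77 and 1.8 in imiquimod mice. The imiquimod libraries were thus nearly equal in this ratio and the vehicle libraries spread, with the caveat on the copy of Psme2 given above. These ratios were not tested.

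The other activators did not pass. Psme3 forms a nuclear cap of the same family as Psme1 and Psme2. Its values were 30.3, 31.4 and 31.9 FPKM under vehicle and 33, 32.9 and 32.6 FPKM under imiquimod, with a log2 change of 0.07 ± 0.05 (limma adjusted p = 0.385). Psme4, a large single-chain activator, was 5.61 ± 0.0953 against 5.65 ± 0.208 FPKM, a change of 0.01 ± 0.07 (limma adjusted p = 0.947).

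Of the 36 other subunits, all 36 had a log2 change above 0, as did 49.1% of all genes tested, and in 30 of them every imiquimod library lay above every vehicle library, as in 19.8% of all genes tested. Their median log2 change was 0.26, against -0.01 over all genes tested. The 11 that passed make up a larger part of the 36 than the 8.74% of all genes that were higher. These counts describe subunits that share libraries and are not independent of each other. The 6 members whose groups overlapped were Psmc5, Psmd6, Psmd9, Psmd10, Psmd14 and Psme4.

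**Figure D3:**
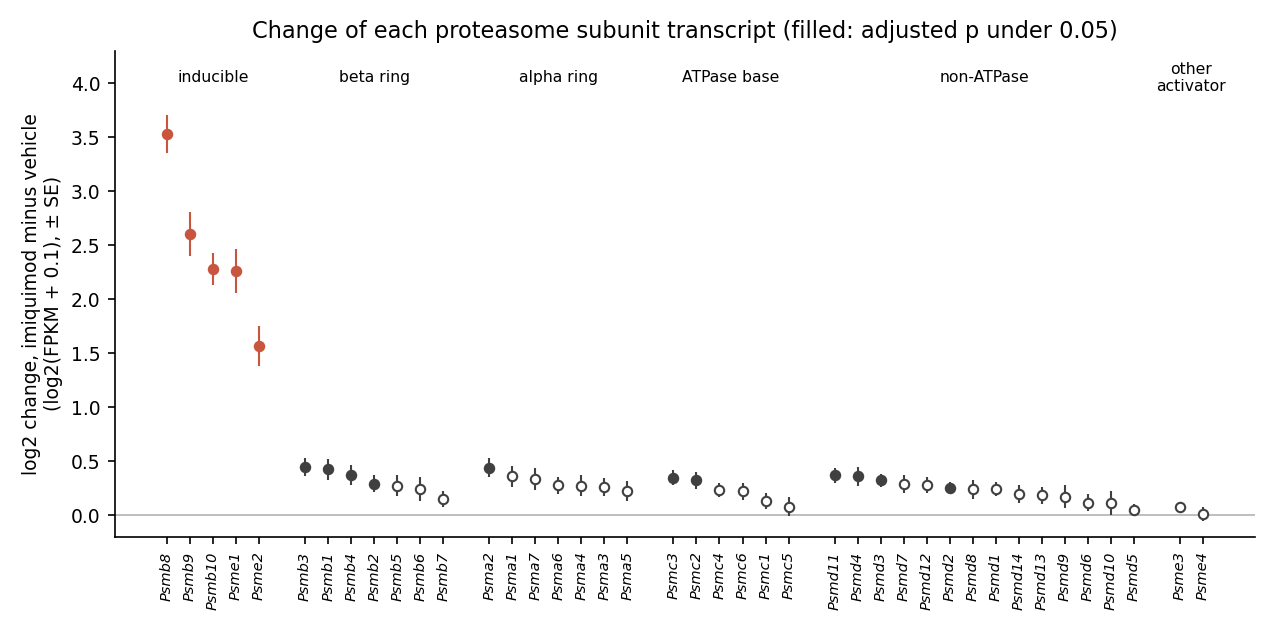
Log2 change of each of the 41 subunits (imiquimod minus vehicle, on log2(FPKM + 0.1), ± SE), grouped by place in the complex. Filled points passed the limma test at an adjusted p under 0.05. The inducible subunits lie between 1.57 and 3.53 and the other 36 between 0.01 and 0.45, of which 11 are filled.

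In the beta ring, 4 of the 7 constitutive subunits were higher, where 8.74% of all genes tested passed as higher. They were the non-catalytic ones. Psmb3 stood at 29.4, 28.6 and 31.6 FPKM against 44.9, 38 and 39.3 FPKM (0.45 ± 0.08, limma adjusted p = 0.016), the largest change outside the inducible set, and 0.26 with the length and GC trends removed (limma adjusted p = 0.037). The others were Psmb1 (27.5 ± 0.778 against 37.2 ± 4.82 FPKM), Psmb2 (45.0 ± 1.45 against 55.2 ± 4.83 FPKM) and Psmb4 (74.4 ± 3.30 against 96.7 ± 11.7 FPKM; SD, n = 3). In all 4 imiquimod replicate 1 was the highest library. With those trends removed, Psmb2 and Psmb4 had changes of 0.19 and 0.18 and did not pass (limma adjusted p = 0.0593 and 0.145). The ring's median was 0.29, and the median ratio of mean FPKM was 1.23.

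In the alpha ring, whose subunits form the gate of the barrel, 1 of 7 was higher, near the 8.74% of all genes tested. Psma2 stood at 30.7, 27.5 and 31 FPKM against 44.7, 40.0 and 36.7 FPKM (0.44 ± 0.09, limma adjusted p = 0.023). In all 7 every imiquimod library lay above every vehicle library, as in 19.8% of all genes tested, and the median change was 0.28. Psma1 lay just outside the threshold (26.5 ± 1.46 against 34.2 ± 4.26 FPKM, limma adjusted p = 0.0528). Psma4 was 29.1 ± 0.392 against 35.4 ± 4.91 FPKM and Psma5 was 49.2 ± 0.456 against 57.8 ± 7.41 FPKM, and neither passed.

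Of the 6 ATPases, which unfold substrates and thread them into the barrel, 2 were higher (8.74% of all genes tested). They were Psmc2 (21.6 ± 0.395 against 27.1 ± 2.73 FPKM) and Psmc3. Psmc3 stood at 45.6, 49.5 and 47.8 FPKM against 65.5, 59.1 and 57.6 FPKM (0.35 ± 0.07, limma adjusted p = 0.0232), but with the trends on exon length and GC content removed its change was 0.14 (limma adjusted p = 0.180). Psmc5, the most abundant of all 41 at 213 ± 4.92 FPKM in vehicle cords, did not pass (0.08 ± 0.09, limma adjusted p = 0.592), and without imiquimod replicate 1 its change was -0.0022.

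Among the 14 Psmd genes, 4 were higher (8.74% of all genes tested): Psmd2, Psmd3, Psmd4 and Psmd11. Psmd4, a receptor for ubiquitin chains, was 31.8 ± 1.94 against 40.9 ± 4.13 FPKM (0.36 ± 0.09, limma adjusted p = 0.0399). Psmd11, a scaffold subunit of the lid, stood at 8.58, 7.65 and 8.76 FPKM against 10.5, 10.9 and 10.9 FPKM (0.37 ± 0.07, limma adjusted p = 0.02). Psmd3, of the same lid, stood at 23.5, 23.4 and 21.9 FPKM against 28.9, 27.6 and 29.6 FPKM (0.32 ± 0.06, limma adjusted p = 0.0172). Psmd2, the large docking subunit of the base, stood at 54.2, 56.0 and 54.3 FPKM against 65.2, 67.4 and 63.8 FPKM (0.26 ± 0.06, limma adjusted p = 0.0271). With the length and GC trends removed, the changes of Psmd2 and Psmd4 were 0.13 and 0.15 and neither passed (limma adjusted p = 0.159 and 0.198). Imiquimod replicate 1 was the highest library for Psmd4 but not for Psmd2, Psmd3 or Psmd11. Psmd5, Psmd9 and Psmd10, which are known as assembly chaperones of the base rather than lasting subunits, did not pass. Psmd1, the other large subunit of the base, lay just outside the threshold (16.0 ± 0.494 against 18.9 ± 1.08 FPKM, limma adjusted p = 0.0544), and Psmd13 was 21.0 ± 0.179 against 24.0 ± 2.32 FPKM.

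The levels themselves kept their wide range. In vehicle cords the other 36 ran from 4.15 FPKM (Psmd9) to 213 FPKM (Psmc5) with a median of 29.4. The ATPases, which the complex holds in equal number, ran from 21.6 to 213 FPKM. Levels of different genes depend on the annotated exon bases by which FPKM divides (7248 for Psmd9 against 1394 for Psmc5). Psmc1 followed Psmc5 at 116 ± 2.71 FPKM, and Psmb5 came next. Psmb9 and Psmb8 were among the 3 lowest of the 41.

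For most of the other subunits imiquimod replicate 1 stood above the rest. It was the highest of the 6 libraries for 31 of the 36, as for 24.4% of all genes tested. The mean log2 deviation of the 36 from the vehicle mean was 0.38 in imiquimod replicate 1, 0.21 in replicate 2 and 0.16 in replicate 3, and between -0.02 and 0.03 in the vehicle libraries. Without imiquimod replicate 1 the median change was 0.18, 35 of the 36 were above 0 (49.6% of all genes) and 9 passed, where 5.57% of all genes passed as higher. The 11 calls became 0 without vehicle replicate 1 (3.99% of all genes higher) or vehicle replicate 2 (4.66%), 1 without vehicle replicate 3 (Psmb3; 4.57%), 13 without imiquimod replicate 2 (10.2%) and 6 without imiquimod replicate 3 (5.06%). When genes of low level were kept in, 6 passed (3.4% of all genes), and with the FPKM sums of the libraries made equal 21 passed (8.94%). Each of these left-out fits has 1 sample fewer, and the median change of the 36 was 0.25, 0.26 and 0.26 without vehicle replicates 1, 2 and 3, and 0.31 without imiquimod replicate 3.

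With the trends on exon length and GC content removed library by library, the mean deviations were 0.22, 0.15 and 0.05 in the imiquimod libraries. The median change of the 36 was then 0.15, against -0.06 over all genes, 33 were above 0 (41.2% of all genes), and 8 passed (7.6% of all genes as higher), of which 6 were among the 11 (Psma2, Psmb1, Psmb3, Psmc2, Psmd3 and Psmd11). Over all genes this correction gave 1255 higher and 1572 lower, where the uncorrected fit gave 1444 higher and 882 lower. Across the 36 subunits the change had a Pearson correlation of -0.07 with log10 exon length and 0.19 with GC content, given as a description over genes that share all 6 libraries.

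**Figure D4:**
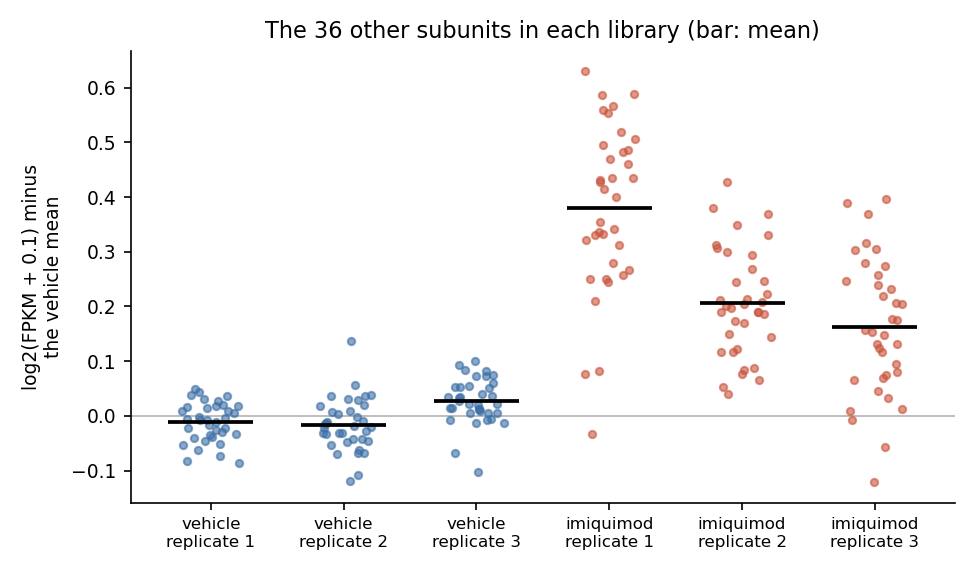
Each of the 36 other subunits in each library, as log2(FPKM + 0.1) minus that gene's vehicle mean, with the mean over the 36 as a bar. Imiquimod replicate 1 stands at 0.38, the other imiquimod libraries at 0.21 and 0.16, and the vehicle libraries between -0.02 and 0.03.

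Of a list of 36 genes that assemble, regulate or feed the proteasome, 33 were tested. Of these, 6 passed as higher and 0 as lower, where 8.74% of all genes passed as higher, and the list's median log2 change was 0.10, against -0.01 over all genes. Adrm1, a ubiquitin receptor of the regulatory particle, stood at 14.2, 14.4 and 14 FPKM against 19.6, 18 and 18.8 FPKM (0.40 ± 0.06, limma adjusted p = 0.00743). It was called in all 17 alternatives. Uba1, the main enzyme that activates ubiquitin, was 55.7 ± 0.555 against 70.4 ± 3.55 FPKM (0.34 ± 0.06, limma adjusted p = 0.0154). Nploc4 and Ufd1, which help the segregase Vcp to extract ubiquitin-tagged proteins, changed by 0.35 ± 0.06 and 0.23 ± 0.06, while Vcp changed by 0.20 ± 0.07 and did not pass. Psmf1, a regulator that binds the barrel, also passed (0.35 ± 0.08, limma adjusted p = 0.0317).

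Pomp, the chaperone needed to assemble both kinds of barrel, stood at 26.3, 24.2 and 25.0 FPKM against 37.4, 30.6 and 28.5 FPKM. Its groups did not overlap, but it did not pass (0.34 ± 0.11, limma adjusted p = 0.0746). Nfe2l1, a transcription factor that raises subunit genes when proteasome activity falls short, was 87.5 ± 3.55 against 94.9 ± 4.93 FPKM (0.12 ± 0.07, limma adjusted p = 0.292). The tissue-restricted subunits Psma8, of testis, and Psmb11, of the thymic cortex, stood at 0.167 to 0.370 FPKM and 0 to 0.0427 FPKM over the 6 libraries and were not tested.

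Several members share sequence or position with other genes. Over 10% of the 50-base stretches of 8 members also occur in transcripts of other genes, among them Psmb5 (54.1%), Psma5 (49.1%) and Psme2. Of the 7 that are not inducible, 2 were among the calls (Psmb3 and Psmd2), as were 9 of the other 29, and the medians were 0.26 and 0.24. Exons of 12 members overlap those of another gene, by up to 25.5% of the exon length (Psmd9, which was 4.15 ± 0.367 against 4.69 ± 0.494 FPKM and did not pass). Psmb8 shares 498 bases with the antisense gene Gm20496, Psmb7 shares 405 bases with Nek6 and Psmc3 shares 215 bases with Slc39a13, and Psma4, Psma5, Psmb5, Psmd1, Psmd3, Psmd13 and Psme1 overlap genes by 342 bases or fewer. Imiquimod replicate 3 stood apart in Gapdh, a gene with many pseudogenes, at 26.4 FPKM against 1.56 to 2.15 FPKM in the other 5, and was the highest library for 2 of the 41 members (Psmd3 and Psmd11) and for none of the 8 with shared sequence. It was the lowest imiquimod library for 24 of the 41 and for 4 of the 8.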

How the data were processed

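Gene expression was measured in 6 libraries, 1 per mouse. Each deposited file gives 1 FPKM value per Ensembl gene, computed by the authors. HISAT2 2.0.5, featureCounts 1.5.0-p3, DESeq2 1.16.1 and mm10 are named in the submitters' processing notes, with no roles. Annotation release, strandedness and the counting of multiply matching reads were not given in the sources used here. Symbols were found for 54409 of 54532 genes. FPKM times exon length (GENCODE M21) fell on whole fragments, within 0.05, for 97.4% to 97.6% of values under 1000 fragments, giving 18174421 to 20672891 fragments per vehicle and 21242427 to 23200994 per imiquimod library. Intervals from these would cover counting error only, and none are given. A gene of 2 kb with 3 fragments has 0.0639 to 0.0863 FPKM. The scale of each library was proportional to its median-of-ratios size factor, with a spread of 0.00539%. This factor is the median over genes of a library's fragments relative to the geometric mean of all libraries. The scale did not follow the recovered total (17697547 against 18634556 in vehicle replicate 1). That the submitters scaled the values so is inferred from the values.

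The main test was limma 3.58.1 with a mean-variance trend, in R 4.3.3, and was tested on simulated data. Ratios used two-sided exact permutation tests. Tables and figures were made in Python 3.11.15 with matplotlib 3.10.9, SciPy 1.17.1, pandas 2.3.3 and NumPy 2.4.6. Promoter windows are RefSeq's. No pair of libraries held identical values. The members and lists (proteasome-associated genes, and markers of microglia, T and NK cells, monocytes, B cells, neutrophils, dendritic cells, neurons, motor neurons, astrocytes, oligodendrocytes, endothelium and cord segments) were chosen with earlier results of these data known. Named with values were the inducible subunits, their counterparts, Psme3, Psme4, the 6 other members with the smallest p among calls, members overlapping another gene, and, of the associated list, up to 5 calls by smallest p, with Psmf1, Pomp and Nfe2l1; Ufd1, Vcp, Psma8, Psmb11, Psma1, Psmc1, Psmc5, Psmb1, Psmb2, Psmb4, Psmc2, Psmd4 and single markers were added after their values were seen. A result that this rule calls for is not reported here.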

Additional observations from a re-analysis of the deposited data

How the results depend on the processing

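All 5 inducible subunits passed as higher, and no other subunit as lower, under each of the 17 alternatives fitted across all genes. The median-of-ratios rescaling among them could change little, because the FPKM were already on that scale. The log2 ratios of the 3 catalytic pairs kept their direction in each of their 9 alternatives; leaving out 1 library gave 3.22 to 3.40 for Psmb8 to Psmb5, 2.29 to 2.63 for Psmb9 to Psmb6 and 2.01 to 2.20 for Psmb10 to Psmb7. The number of other subunits passing as higher was 11, but 6 with no filter on low values, 21 with equal sums of FPKM, and 0 to 13 with 1 library left out. Over all genes, leaving out 1 library gave 660 to 1690 higher and 187 to 1296 lower; no filter gave 508 lower, and removing the length and GC trends 1572 lower. Of the single members, Psme3 had a change of -0.043 with those trends removed, without or with the replicate block. Psmc5 and Psmc1 had -0.066 and -0.021 with those trends removed. Psme4 had -0.0018 without vehicle replicate 2, -0.021 without imiquimod replicate 2 and up to 0.030 with another library left out. None of these members passed in any fit. The cause of these shifts was not tested, except that leaving out a library leaves fewer samples.

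The replicate numbers are shared by the groups, but same-numbered libraries did not deviate together (correlations of 0.02, -0.10 and -0.03 across genes), so the numbers were not taken as a pairing. With the replicate block 3 other subunits passed (894 genes higher, 5.41%, and 436 lower over all), and 2 with the block and the length and GC trends removed (852 genes higher, 5.16%). The pair ratios had a sign-flip permutation p of 0.25 in the paired form with the block, the smallest that 3 pairs allow. Exon length and GC content were known for all 41 members.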
